A study of Mus musculus with 16 samples.

Results

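Transcripts of 8 genes for epicardial transcription factors were followed by RNA sequencing in 2 immortalized mouse epicardial cell lines under 4 treatments. The genes are Wt1, Bnc1, Tbx18, Tcf21, Gata4, Gata5, Gata6 and Nfatc1, out of 30385 gene entries. They were picked by name as factors known from the epicardium, with earlier results of these data known. Each had 1 entry in the deposited tables, and 8 of 8 passed the filter on low counts that left 16835 genes for testing. On build mm9, the deposited tables place Wt1 at chr2:104966685-105013771, Bnc1 at chr7:89111547-89137185, Tbx18 at chr9:87597634-87626095, Tcf21 at chr10:22537078-22539934, Gata4 at chr14:63817751-63890529, Gata5 at chr2:180059792-180069384, Gata6 at chr18:11052507-11085633 and Nfatc1 at chr18:80802943-80909810. The mt line is Tgfbr3-/-:Immorto, homozygous for a knockout of Tgfbr3, which encodes the type III TGFβ receptor. The wt line is Tgfbr3+/+:Immorto. Both lines came from embryos at E11.5 on a C57BL/6 SV129 mixed background and carried a temperature-sensitive T antigen. They were grown at 33 °C with interferon γ and an insulin supplement, and were moved for the experiment to 37 °C, without both additives, to switch the T antigen off. Cells plated at 200000 per well then received 250 pM TGFB1, 250 pM TGFB2, 5 nM BMP2 or vehicle (VEH) for 72 h. The 8 groups, which are TGFB1, TGFB2, BMP2 and VEH in mt and the same in wt cells, hold 2 libraries each. There is 1 line per genotype, so that genotype and line cannot be told apart. The labels do not say whether the libraries of a group came from separate cultures, and p-values therefore measure the spread between these libraries, which may be technical.

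The epicardium is the mesothelial sheet on the surface of the heart. In the embryo some of its cells undergo epithelial-to-mesenchymal transition, enter the muscle wall and give rise to fibroblasts and vascular smooth muscle. TGFβ ligands and BMP ligands signal through receptor kinases to SMAD proteins. TGFβ ligands act mainly through SMAD2 and SMAD3, and BMP ligands mainly through SMAD1, SMAD5 and SMAD8, with SMAD4 shared by both branches. The type III receptor binds TGFβ ligands at the cell surface, TGFB2 in particular, and can also bind BMP2. WT1, TBX18 and TCF21 are the factors most often used to mark the epicardium and its progenitor cells. GATA4 and GATA6 are needed in the proepicardium and the heart muscle, GATA5 belongs to the same family and is active in the early heart and its coverings, BNC1 (basonuclin 1) is a zinc finger protein of epithelia and mesothelia, and NFATC1 is a calcineurin-controlled factor known best from the endocardium, the valves and osteoclasts.

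Library totals ran from 6410320 to 31813921 reads. The level of a gene is its count per 1000000 reads (CPM) after TMM scaling, which corrects library size for composition. Tgfbr3 itself had 9.73 to 18.2 CPM in the 8 mt libraries, against 32.5 to 100 CPM in the 8 wt libraries, and the labels do not say which part of the gene is deleted. The 10 epicardial marker genes, of which 4 are among the 8 genes described here, summed to 849 to 4200 CPM per library in mt cells and to 1340 to 3900 CPM per library in wt cells. The 4 mt libraries of replicate 1 stood apart by transcripts of heart muscle. The 14 cardiomyocyte markers other than Tnnt2 summed to 65.4 to 124 CPM in those 4 libraries, against 11.9 to 25.0 CPM in the other 12. Tnnt2 was set apart after its values were seen, because it alone gave 50.7 to 907 CPM per library, with the highest values in wt cells. Myh6 lay at 14.6 to 28.4 CPM in those 4 libraries and at no more than 0.440 CPM elsewhere, and Myl3 was at 0 reads in all of the other 12. For TGFβ in mt cells and some line comparisons, counts of the 8 genes called are therefore also given without these 4 libraries. Counts for the gene lists further below are given with all libraries only. In bulk samples, fewer cells of a type and less RNA per cell cannot be told apart.

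TGFB1 and TGFB2 lowered most of the epicardial factors in both lines and raised Nfatc1, whereas BMP2 moved none of them past the threshold, an adjusted p of 0.05. In mt cells TGFB1 lowered Wt1, Bnc1, Tcf21, Gata5 and Gata6, 5 of 8 genes, against 8.45% of all genes tested, and raised 1 of 8, Nfatc1, against 7.97% of all genes. TGFB2 in mt cells moved the same 6 genes in the same directions, with 9.25% of all genes lower and 8.17% higher. In wt cells TGFB1 lowered Wt1, Bnc1, Gata4, Gata5 and Gata6, against 8.21% of all genes, and raised Nfatc1, against 10.8% of all genes. TGFB2 in wt cells again moved the same 6, with 9.03% of all genes lower and 11.1% higher. The median log2 fold change of the 8 genes was -1.16 with TGFB1 and -1.24 with TGFB2 in mt cells, and -0.91 with TGFB1 and -0.99 with TGFB2 in wt cells, where the medians over all genes lay between -0.01 and 0.02.

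The 2 TGFβ comparisons within a line share their vehicle libraries and are not independent of each other. In each of the 4, all 8 genes had TGFβ libraries that did not overlap the vehicle libraries, 7 lower and 1 higher. Over all genes tested, the libraries did not overlap for 48.5% with TGFB1 and 53.7% with TGFB2 in mt cells, and for 59.5% with TGFB1 and 61.4% with TGFB2 in wt cells. Samples that carry the same replicate number varied together, and with the replicate number as a block in the fit the wt count grew to 7 lower and 1 higher with either ligand, through Tbx18 and Tcf21. In that fit 15.6% of all genes were lower and 17.9% higher with TGFB1, and 16.3% lower and 18.4% higher with TGFB2. In mt cells the block raised the TGFB1 count from 6 to 7, through Tbx18, and left the TGFB2 count at 6, where 32.5% and 33.5% of all genes were called in either direction. Without the 4 mt replicate 1 libraries, the mt count was 4 of 8 with either ligand, Tcf21, Gata5 and Gata6 lower and Nfatc1 higher, so that Wt1 and Bnc1 lost their calls. Over all genes 9.01% with TGFB1 and 9.18% with TGFB2 were then called. Leaving out TGFB1 replicate 1, TGFB1 replicate 2 or VEH replicate 1 of the wt line lowered its TGFB1 count to 3, while 9.78%, 10.4% and 10.9% of all genes were called in these fits. A fit on the 4 libraries of the comparison alone called 1 of 8 genes, Gata5, for TGFB1 in mt cells, and 1.88% of all genes. Smooth muscle markers and the heart muscle gene Tnnt2 differed with the TGFβ ligands too. The sum of all 15 cardiomyocyte markers, Tnnt2 included, was 191 to 291 CPM with TGFβ and 64.5 and 133 CPM with VEH in mt cells, and 667 to 922 CPM with TGFβ and 154 and 250 CPM with VEH in wt cells. The smooth muscle sum over 6 genes was 4200 to 4620 CPM with TGFβ and 904 to 2850 CPM with VEH in mt cells, and 3100 to 5280 CPM with TGFβ and 953 to 1660 CPM with VEH in wt cells. Myh11, the defining gene of mature smooth muscle, stayed between 0.265 and 3.24 CPM in all libraries. The part of these transcripts in the results for the 8 genes was not tested.

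**Figure D1:**
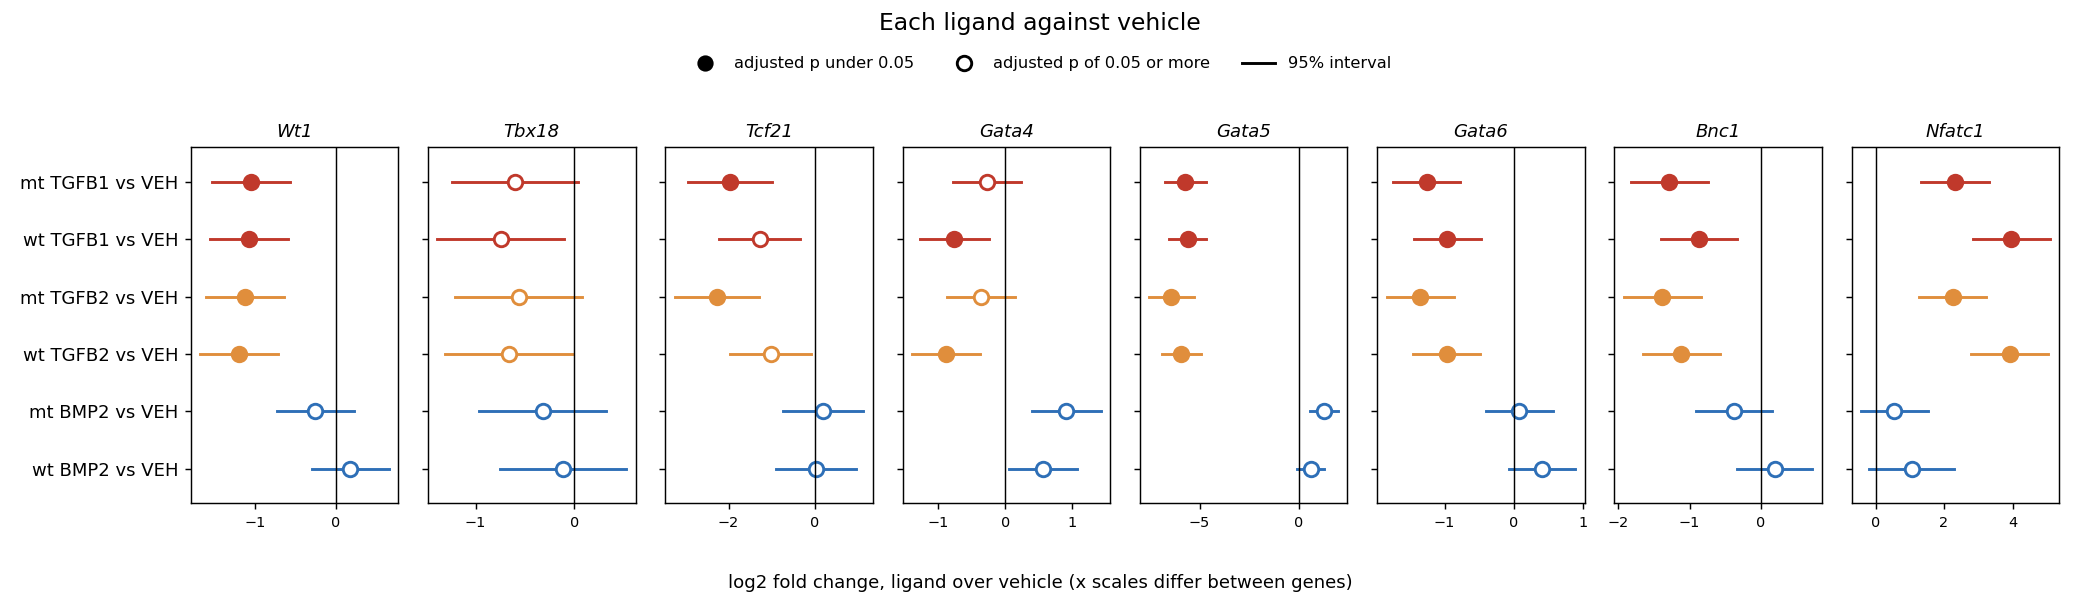
Log2 fold change (ligand over vehicle) of each gene, with TGFB1 in red, TGFB2 in orange and BMP2 in blue; points are estimates, bars are 95% intervals, and filled points have an adjusted p under 0.05. The points of all 8 genes lie on the same side with TGFB1 and TGFB2 in both lines, 7 left of 0 and Nfatc1 right of it, and all BMP2 points are open; the Gata5 points for TGFB1 and TGFB2 rest on 3 to 11 reads per group.

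Wt1 encodes the zinc finger factor that marks the epicardium and is required for its mesenchymal derivatives. Its level in mt cells was 64.9 and 80.8 CPM with TGFB1 and 68.6 and 70.1 CPM with TGFB2, against 148.8 and 153.3 CPM with VEH. The wt cells had 78.7 and 75.9 CPM with TGFB1 and 73.8 and 68.6 CPM with TGFB2, against 171.9 and 155.5 CPM with VEH. Every TGFβ library was below every vehicle library of either line, and the 2 lines lay close together. In mt cells the log2 fold change was -1.05 ± 0.22 (SE; adjusted p = 0.00727) with TGFB1 and -1.12 ± 0.22 (adjusted p = 0.00475) with TGFB2. The wt values were -1.08 ± 0.22 (adjusted p = 0.00516) with TGFB1 and -1.20 ± 0.22 (adjusted p = 0.00262) with TGFB2. Wt1 was thus at a little under 0.5 of its vehicle level, 0.482 and 0.459 in mt cells and 0.472 and 0.435 in wt cells. The wt calls held with any 1 of the 4 libraries left out. Of the mt calls, that for TGFB1 was lost without TGFB1 replicate 1 (adjusted p = 0.061), and both were lost without the 4 mt replicate 1 libraries, where the log2 fold changes were -0.93 and -1.13.

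Bnc1, the basonuclin gene, followed the same pattern. It stood at 88.3 and 67.5 CPM with TGFB1 and at 72.5 and 73.3 CPM with TGFB2 in mt cells, against 211.1 and 168.8 CPM with VEH. The wt cells had 142 and 122.5 CPM with TGFB1 and 114.5 and 107.3 CPM with TGFB2, against 248.5 and 232.6 CPM with VEH. Neither line had a TGFβ library that reached its vehicle libraries. The log2 fold change was -1.29 ± 0.25 (adjusted p = 0.00438) with TGFB1 and -1.38 ± 0.25 (adjusted p = 0.00266) with TGFB2 in mt cells, and -0.86 ± 0.25 (adjusted p = 0.0287) with TGFB1 and -1.12 ± 0.25 (adjusted p = 0.00743) with TGFB2 in wt cells. The wt TGFB1 call was lost with any 1 of its 4 libraries left out (-0.77 to -1.02, adjusted p from 0.0626 to 0.17), and the wt TGFB2 call without TGFB2 replicate 2 (adjusted p = 0.0605). Without the 4 mt replicate 1 libraries the mt values were -1.32 and -1.20, with adjusted p of 0.0561 and 0.0736.

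Tcf21, a basic helix-loop-helix factor of the epicardium and of cardiac fibroblast precursors, had its lowest levels in mt cells given TGFβ. It was at 38.9 and 65.3 CPM with TGFB1 and at 34.0 and 50.1 CPM with TGFB2 in mt cells, against 132.6 and 275.6 CPM with VEH. The wt level was 125.3 and 214.1 CPM with TGFB1 and 148.1 and 257.4 CPM with TGFB2, against 396.4 and 425 CPM with VEH. The TGFβ libraries were below the vehicle libraries in both lines, and replicate 2 was above replicate 1 in all 8 groups. In mt cells the log2 fold change was -1.97 ± 0.44 (adjusted p = 0.0102) with TGFB1 and -2.28 ± 0.45 (adjusted p = 0.00463) with TGFB2. For wt cells the values were -1.27 ± 0.43 (adjusted p = 0.0606) with TGFB1 and -1.02 ± 0.43 (adjusted p = 0.125) with TGFB2, and with the replicate block the adjusted p was 0.000187 and 0.000872. The mt TGFB1 call was lost without TGFB1 replicate 1 or without VEH replicate 2 (adjusted p = 0.0818 in both cases), and the mt TGFB2 call without TGFB2 replicate 1 (adjusted p = 0.0562). An unnamed cDNA entry on the opposite strand covers all 2857 bases of the Tcf21 entry. It held 8 to 158 reads per library, 0.576% to 3.27% of the Tcf21 reads, and reads of the 2 cannot be told apart if the counting ignored strand, which was not given in the sources used here.

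Tbx18, the T-box factor of the proepicardium and sinus venosus, had the smallest log2 fold change among the 7 genes that were lower in wt cells. With TGFB1 it was at 43.7 and 54.5 CPM and with TGFB2 at 49.4 and 51.3 CPM in mt cells, against 60.6 and 88.1 CPM with VEH. Levels in wt cells were 33.2 and 41.1 CPM with TGFB1 and 39.2 and 39.4 CPM with TGFB2, against 53.7 and 70.9 CPM with VEH. Groups did not overlap, but the gap between mt TGFB1 replicate 2 and mt VEH replicate 1 was narrow. The log2 fold change was -0.60 ± 0.29 (adjusted p = 0.203) with TGFB1 and -0.56 ± 0.29 (adjusted p = 0.225) with TGFB2 in mt cells, and -0.74 ± 0.29 (adjusted p = 0.105) with TGFB1 and -0.66 ± 0.29 (adjusted p = 0.144) with TGFB2 in wt cells. With the replicate block the adjusted p was 0.0373 and 0.052 in mt cells and 0.0109 and 0.0224 in wt cells.

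**Figure D2:**
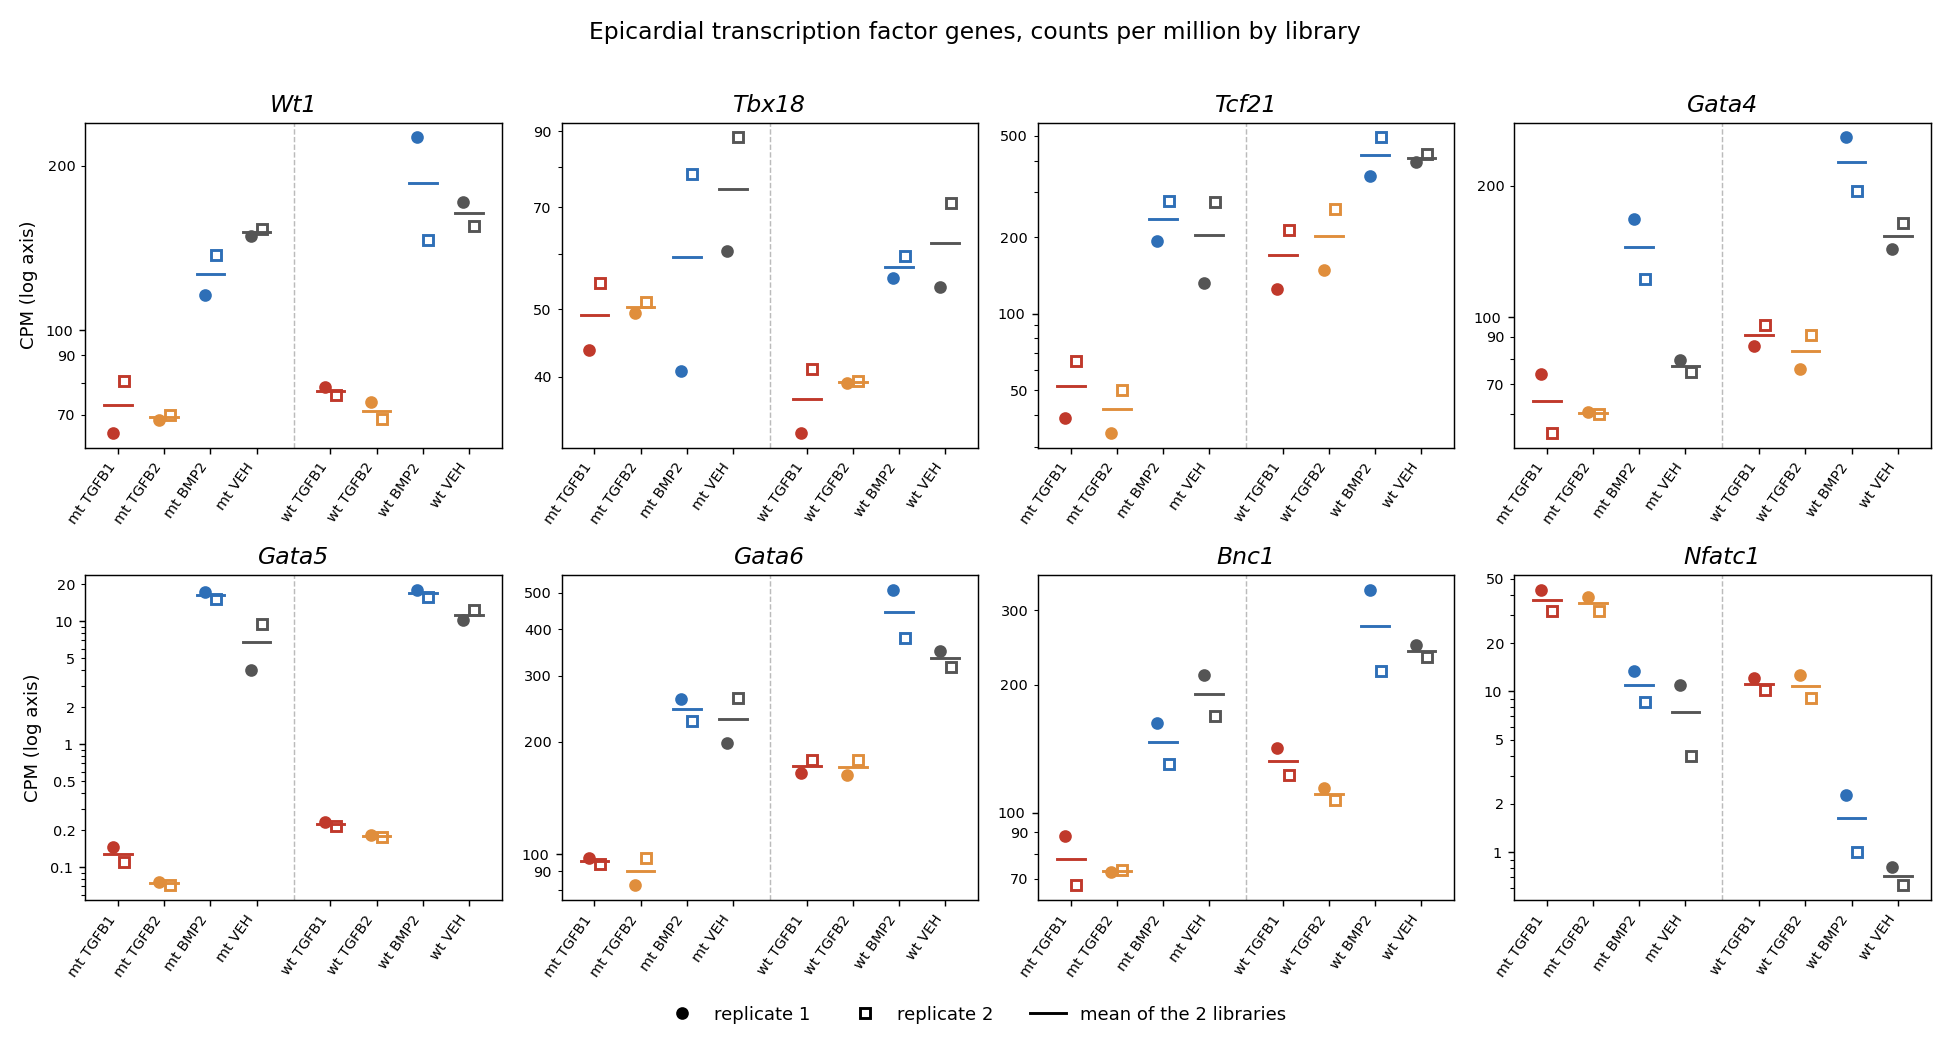
CPM of the 8 genes (log axis, scales differ between panels) in the 2 libraries of each line and treatment, with filled circles for replicate 1, open squares for replicate 2 and bars for the mean; mt groups are left of the dashed line and wt groups right of it. TGFB1 and TGFB2 libraries lie below the vehicle libraries of the same line for all genes but Nfatc1, where they lie above, and Gata5 is near 0.1 to 0.2 CPM with either TGFβ ligand.

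Gata5 had the largest fold difference of the 8 genes in every comparison of a TGFβ ligand with VEH. In mt cells it had 2 and 3 reads with TGFB1 and 1 and 2 reads with TGFB2, against 49 and 176 reads with VEH. In wt cells it had 4 and 7 reads with TGFB1 and 3 and 4 reads with TGFB2, against 227 and 354 reads with VEH. The gene was thus close to the limit of detection with either TGFβ ligand and clearly above it in all other libraries, which held 4.05 to 18.1 CPM. On the log2 scale, with TGFB1 Gata5 fell by 5.72 ± 0.48 in mt cells (adjusted p = 3.76e-05) and fell by 5.61 ± 0.43 in wt cells (adjusted p = 2.61e-05), and with TGFB2 it fell by 5.92 ± 0.45 in wt cells (adjusted p = 2.02e-05). For TGFB2 in mt cells the vehicle level was 101 times that with TGFB2, with an exact interval of 34.0 to 491 for counting error alone, since only 3 reads stood on the TGFB2 side. The same ratio was 63.6 (30.7 to 159) in wt cells. For TGFB1 the ratio was 60.0 (25.3 to 187) in mt cells and 51.1 (28.4 to 103) in wt cells. The intervals of the ratios overlap throughout, and the 4 calls held with any 1 library left out.

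Gata6, a factor that acts with Gata4 in the heart and its coverings, was at 98.0 and 94.0 CPM with TGFB1 and at 82.6 and 97.7 CPM with TGFB2 in mt cells, against 198.6 and 261.8 CPM with VEH. The wt cells had 165.2 and 178.3 CPM with TGFB1 and 162.9 and 178.8 CPM with TGFB2, against 350.3 and 317.9 CPM with VEH. Every TGFβ library was below the vehicle libraries of its line, and the highest mt vehicle library stayed below the lowest wt vehicle library. In mt cells Gata6 fell by 1.26 ± 0.22 (adjusted p = 0.00267) with TGFB1 and by 1.35 ± 0.22 (adjusted p = 0.00168) with TGFB2. In wt cells it fell by 0.96 ± 0.22 (adjusted p = 0.00999) with TGFB1 and by 0.97 ± 0.22 (adjusted p = 0.00902) with TGFB2. The mt calls held with any 1 library left out and without the 4 mt replicate 1 libraries. The wt TGFB1 call was lost without TGFB1 replicate 1 (adjusted p = 0.0716), TGFB1 replicate 2 (0.0543) or VEH replicate 1 (0.0614), and the wt TGFB2 call without TGFB2 replicate 1 (0.0822) or VEH replicate 1 (0.057). An entry on the opposite strand shares 59 bases with the start of the Gata6 entry.

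Gata4, the GATA gene most studied in heart muscle, passed the test with TGFβ in wt cells and not in mt cells. In mt cells it was at 74.2 and 54.2 CPM with TGFB1 and at 60.5 and 59.9 CPM with TGFB2, against 79.8 and 74.7 CPM with VEH. In wt cells it was at 85.9 and 95.9 CPM with TGFB1 and at 76.1 and 90.9 CPM with TGFB2, against 143.1 and 164 CPM with VEH. The vehicle libraries of mt cells were about as low as the TGFβ libraries of wt cells. The log2 fold change was -0.27 ± 0.23 (adjusted p = 0.499) with TGFB1 and -0.36 ± 0.23 (adjusted p = 0.339) with TGFB2 in mt cells, with 95% intervals of -0.78 to 0.24 and -0.87 to 0.15. It was -0.76 ± 0.23 (adjusted p = 0.0408) with TGFB1 and -0.88 ± 0.23 (adjusted p = 0.0196) with TGFB2 in wt cells. The difference between the lines in this response did not pass its own test (0.49 ± 0.33 with TGFB1 and 0.52 ± 0.33 with TGFB2, mt minus wt, adjusted p = 0.996 and 1). The wt TGFB1 call was lost with any 1 of its 4 libraries left out (adjusted p from 0.0822 to 0.19), and the wt TGFB2 call without TGFB2 replicate 1, TGFB2 replicate 2 or VEH replicate 2 (0.151, 0.0565 and 0.113). Gata4 is also a gene of heart muscle. Without the 4 mt libraries that held heart muscle transcripts, the mt values were -0.47 ± 0.32 and -0.32 ± 0.32.

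Nfatc1 was the gene that rose. In mt cells it was at 42.8 and 31.5 CPM with TGFB1 and at 38.8 and 31.8 CPM with TGFB2, against 11.0 and 3.98 CPM with VEH. In wt cells it was at 12.1 and 10.2 CPM with TGFB1 and at 12.7 and 9.05 CPM with TGFB2, against 0.808 and 0.624 CPM with VEH. The TGFβ libraries of wt cells reached about the level of the mt vehicle library with the most Nfatc1. The log2 fold change was 2.32 ± 0.45 (adjusted p = 0.00468) with TGFB1 and 2.25 ± 0.45 (adjusted p = 0.00509) with TGFB2 in mt cells, and 3.96 ± 0.52 (adjusted p = 0.000397) with TGFB1 and 3.92 ± 0.52 (adjusted p = 0.000375) with TGFB2 in wt cells. These are 5.00-fold and 4.76-fold increases in mt cells and 15.6-fold and 15.1-fold increases in wt cells. The wt folds rest on 18 Nfatc1 reads in each wt VEH library. All 4 calls held with any 1 library left out, but the size of the mt values depended on the vehicle libraries. The mt log2 fold changes were 3.21 and 3.14 without VEH replicate 1, 1.75 and 1.68 without VEH replicate 2, and 2.98 and 3.00 without the 4 mt replicate 1 libraries. The difference between the lines in the response, mt minus wt, was -1.64 ± 0.66 with TGFB1 and -1.67 ± 0.66 with TGFB2 and did not pass the test (adjusted p = 0.693 and 0.71). It was -0.98 ± 0.61 and -0.92 ± 0.61 without the 4 mt replicate 1 libraries.

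Nfatc1 is a marker of endocardium and of osteoclasts, so markers of endothelium and of blood cells are set beside it. The 10 endothelial and endocardial markers summed to 29.9 to 39.6 CPM with TGFβ and to 45.3 to 51.0 CPM with VEH in mt cells, and to 33.4 to 41.2 CPM with TGFβ and to 62.6 to 66.2 CPM with VEH in wt cells. Their sum was thus lower with TGFβ, whereas the blood and macrophage sum given below was higher. Pecam1, Cdh5, Tie1 and Emcn stood at no more than 1.36 CPM in any library. Other genes of the list were higher, with Kdr at 13.8 to 62.3 CPM, Tek at 0.917 to 24.2 CPM and Egfl7 at 3.67 to 14.6 CPM. Npr3, an endocardial gene, was at 3.33 to 10.6 CPM in mt cells and at 1.69 to 4.43 CPM in wt cells. The 8 blood and macrophage markers in the tables summed to 25.9 to 33.0 CPM with TGFβ and to 19.4 to 22.4 CPM with VEH in mt cells, and to 22.8 to 37.2 CPM with TGFβ and to 11.1 to 11.2 CPM with VEH in wt cells. Most of this sum was Cd68, and Ptprc, the pan-leukocyte gene, stood at no more than 0.220 CPM. Whether endothelial or blood cells had a part in the Nfatc1 values was not tested.

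BMP2 was tested against vehicle to ask whether the other branch of the pathway acts on the same genes. No member passed the test in either line by edgeR or by DESeq2, and at an unadjusted p under 0.05 the number was 2 of 8 in mt cells, against 3.34% of all genes, and 1 of 8 in wt cells, against 5.15% of all genes. Over all genes tested, 0.0416% were called in mt cells and 0% in wt cells by edgeR. DESeq2 called 47 genes in mt cells and 14 in wt cells. Gata4 and Gata5 were nevertheless higher with BMP2 in every library than in the vehicle libraries of the same line. Gata4 was at 167.8 and 122.4 CPM with BMP2 and at 79.8 and 74.7 CPM with VEH in mt cells, and at 258.4 and 194.3 CPM with BMP2 and at 143.1 and 164 CPM with VEH in wt cells. Its log2 fold change was 0.91 ± 0.23 (adjusted p = 0.615) in mt cells and 0.56 ± 0.23 (adjusted p = 0.915) in wt cells. Gata5 was at 17.2 and 15.3 CPM with BMP2 and at 4.05 and 9.47 CPM with VEH in mt cells, and at 18.1 and 15.9 CPM with BMP2 and at 10.2 and 12.3 CPM with VEH in wt cells. Its log2 fold change was 1.25 ± 0.33 (adjusted p = 0.615) in mt cells and 0.59 ± 0.32 (adjusted p = 0.915) in wt cells. Without the 4 mt replicate 1 libraries the mt values were 0.71 ± 0.32 for Gata4 and 0.70 ± 0.34 for Gata5.

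The other 6 genes had smaller or less even values with BMP2. In mt cells their log2 fold changes ran from -0.38 ± 0.24 for Bnc1 to 0.55 ± 0.45 for Nfatc1. In wt cells they ran from -0.11 ± 0.29 for Tbx18 to 1.05 ± 0.57 for Nfatc1, which was at 2.26 and 1.01 CPM with BMP2 and at 0.808 and 0.624 CPM with VEH. Libraries with BMP2 did not overlap those with VEH for 2 genes upward and 2 downward in mt cells, against 18.9% of all genes in either direction. In wt cells this held for 4 genes, all upward (Gata4, Gata5, Gata6 and Nfatc1), against 16.1% of all genes in that direction.

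Set against BMP2 in place of vehicle, the TGFβ ligands gave more calls among these genes. This comparison averages TGFB1 and TGFB2 and so has smaller SEs, for example 0.18 against 0.22 with TGFB1 alone for Wt1 in wt cells. Its counts are therefore not on equal terms with those against vehicle. With TGFB1 and TGFB2 averaged, 6 of 8 genes were lower and Nfatc1 was higher in mt cells, where 10.0% of all genes were lower and 8.10% higher. In wt cells the same 6 genes were lower and Nfatc1 higher, where 24.4% of all genes were called in either direction. Without the 4 mt replicate 1 libraries the mt count was 5 of 8, with Wt1 and Bnc1 no longer called, and 9.41% of all genes were called. Tbx18 was the gene without a call, at -0.26 ± 0.25 (adjusted p = 0.554) in mt cells and -0.59 ± 0.25 (adjusted p = 0.109, and 0.0141 with the replicate block) in wt cells. Gata4 fell in both lines on this scale, by 1.22 ± 0.20 (adjusted p = 0.00115) in mt cells and by 1.38 ± 0.19 (adjusted p = 0.000446) in wt cells. Gata5 fell by 7.32 ± 0.37 (adjusted p = 5.44e-07) in mt cells and fell by 6.36 ± 0.34 (adjusted p = 1.5e-06) in wt cells. Gata6 fell by 1.39 ± 0.18 in mt cells and by 1.38 ± 0.18 in wt cells, with an adjusted p of 0.000324 in each line. The calls for the 3 GATA genes held with any 1 of the 6 libraries left out in each line. The wt Tcf21 call (-1.18 ± 0.36, adjusted p = 0.0309) did not hold without TGFB1 replicate 1, TGFB2 replicate 1 or either BMP2 library (0.0596 to 0.196). The mt calls for Wt1 and Nfatc1 did not hold without BMP2 replicate 2 (0.1 and 0.127), and that for Bnc1 not without BMP2 replicate 1 (0.0755).

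TGFB1 and TGFB2 at the same 250 pM were also compared with each other, since the type III receptor is known for presenting TGFB2. None of the 8 genes differed in either line by edgeR or DESeq2, and none had an unadjusted p under 0.05. Of all genes tested, 0% were called in each line, with 64 genes in mt cells and 55 in wt cells at an unadjusted p under 0.05. The size of difference that these libraries allow varied by gene. For Wt1 the log2 difference, TGFB2 over TGFB1, was -0.07 (95% interval -0.55 to 0.41) in mt cells and -0.12 (-0.60 to 0.36) in wt cells. For Gata6 it was -0.09 (-0.57 to 0.39) in mt cells and -0.01 (-0.49 to 0.47) in wt cells. The interval was wider for Tcf21, -0.31 (-1.25 to 0.63) in mt cells and 0.26 (-0.67 to 1.19) in wt cells, and for Nfatc1, -0.07 (-0.99 to 0.85) in mt cells and -0.04 (-0.98 to 0.90) in wt cells. It was widest for Gata5, which had few reads, at -0.71 (-2.36 to 0.95) in mt cells and -0.31 (-1.55 to 0.93) in wt cells. A difference of 1 log2 unit between the ligands is thus outside the interval for Wt1 and Gata6 and inside or near it for Tcf21, Nfatc1 and Gata5.

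The lines themselves differed in Nfatc1 and, less firmly, in Gata4 and Tcf21. In VEH, with 18 Nfatc1 reads in each wt library, Nfatc1 was 10.3-fold higher in mt than in wt cells (3.37 ± 0.51 on the log2 scale, adjusted p = 0.00425). Gata4 was lower in mt cells in VEH (log2 difference -0.99 ± 0.23, adjusted p = 0.0389). That is 1 of 8 genes higher, against 2.45% of all genes, and 1 of 8 lower, against 1.13% of all genes. The mt libraries did not overlap the wt libraries for 7 of 8 genes in VEH, 6 lower and 1 higher, against 34.4% of all genes in either direction. Tcf21 was lower in mt cells in every treatment, with log2 differences of -1.70 ± 0.44 with TGFB1, -2.27 ± 0.45 with TGFB2, -0.84 ± 0.43 with BMP2 and -1.01 ± 0.43 with VEH. Only the TGFB2 value passed the test (adjusted p = 0.0228), in a comparison where 1.35% of all genes were called lower, while all 4 passed with the replicate block (adjusted p = 0.000224, 2.71e-05, 0.0161 and 0.00324).

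The line differences of the other genes fell into groups. Nfatc1 was higher in mt cells in every treatment, by 1.73 ± 0.44 with TGFB1 (adjusted p = 0.0778, and 0.000715 with the replicate block), 1.70 ± 0.44 with TGFB2 (0.0822, and 0.000653 with the block) and 2.86 ± 0.52 with BMP2 (0.0139, with 2.01% of all genes called higher). Gata6 had log2 differences of -0.84 ± 0.22 with TGFB1, -0.92 ± 0.22 with TGFB2 and -0.87 ± 0.22 with BMP2, with adjusted p of 0.0941, 0.0612 and 0.0583, and passed with the replicate block (0.0188, 0.0108 and 0.0124). Bnc1 had log2 differences from -0.34 ± 0.24 with VEH to -0.91 ± 0.25 with BMP2, and passed with the replicate block with TGFB1 (0.0153) and BMP2 (0.00524). Wt1 differed little between the lines, -0.09 ± 0.22 with TGFB1, -0.04 ± 0.22 with TGFB2, -0.55 ± 0.22 with BMP2 and -0.12 ± 0.22 with VEH. Tbx18 was the gene with values above 0 in all 4 treatments apart from Nfatc1, 0.05 to 0.40, with no adjusted p under 0.679. No member was called with TGFB1 by edgeR, where 1.79% of all genes were called in either direction and 4 of 8 members had an unadjusted p under 0.05, against 12.4% of all genes. DESeq2 called 3 of 8, against 3.78% of all genes, and the fit with the replicate block called 4. With that block, 7.88% of all genes were called between the lines with TGFB1, 8.18% with TGFB2, 12.7% with BMP2 and 10.3% with VEH.

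Several of these line differences rest on few libraries. The Gata4 difference in VEH lost its call with any 1 of the 4 libraries left out (adjusted p from 0.0988 to 0.249) and without the 4 mt replicate 1 libraries (0.229), although its size stayed between -0.90 and -1.09. The Nfatc1 difference in VEH lost its call without wt VEH replicate 2 (3.18, adjusted p = 0.0812) and without the 4 mt replicate 1 libraries (2.48 ± 0.45, adjusted p = 0.0547), and that in BMP2 without mt BMP2 replicate 1 (0.0655) or wt BMP2 replicate 2 (0.103). The Tcf21 difference with TGFB2 lost its call without mt TGFB2 replicate 1 (0.275), mt TGFB2 replicate 2 (0.146), wt TGFB2 replicate 2 (0.24) or the 4 mt replicate 1 libraries (0.167). Gata5 gained a call in VEH (-1.48, adjusted p = 0.0151) without mt VEH replicate 2, against -0.72 ± 0.32 (adjusted p = 0.332) with all libraries, and Bnc1 gained one in BMP2 (-1.19, adjusted p = 0.0434) without wt BMP2 replicate 2. A test of whether the ligand response itself differed between the lines called none of the 8 genes for TGFB1, TGFB2 or BMP2 by edgeR or DESeq2. By edgeR, at an unadjusted p under 0.05 that test had 1 of 8 genes for TGFB1 and 1 for TGFB2, Nfatc1 in both cases, and 0 for BMP2, against 6.18%, 5.65% and 3.23% of all genes. At an adjusted p under 0.05 it called 0.0119%, 0.0475% and 0% of all genes.

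**Figure D3:**
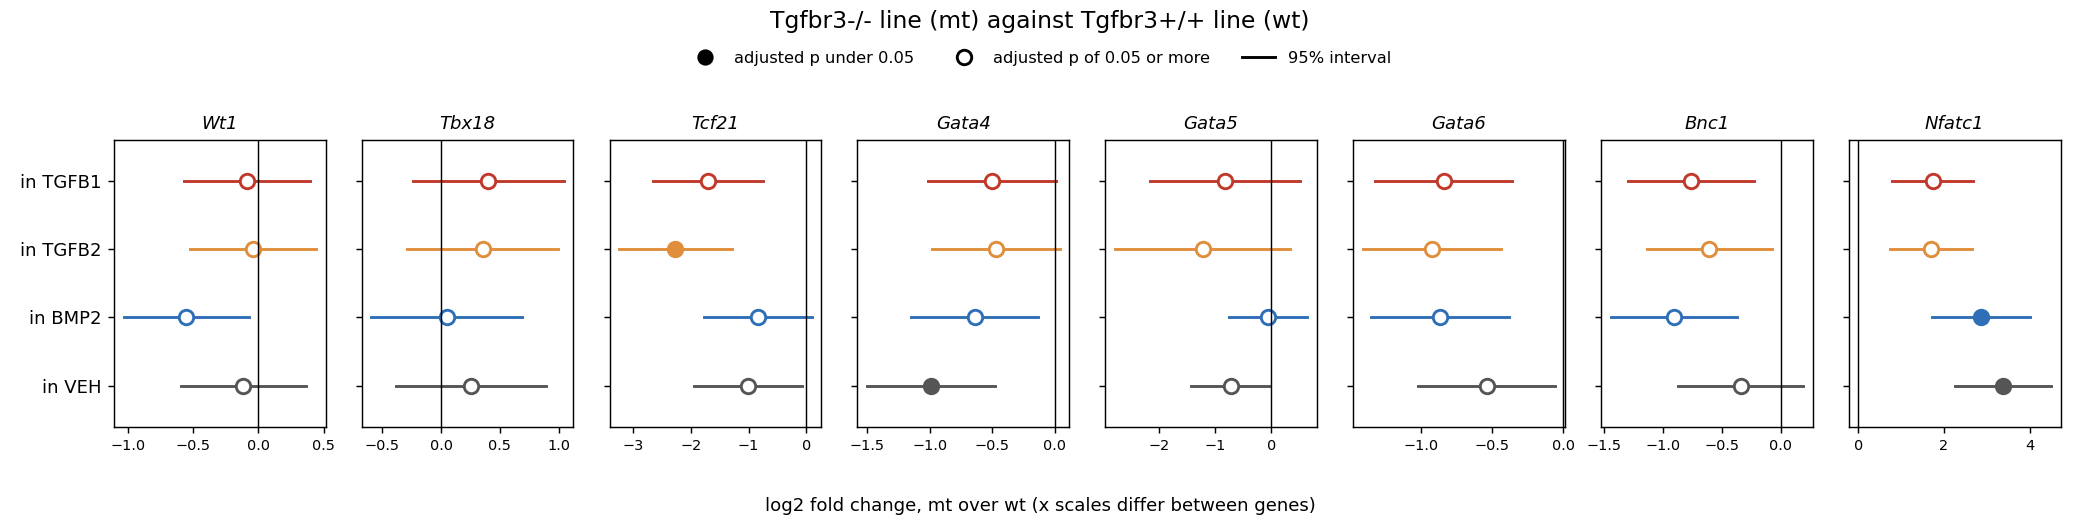
Log2 fold change of the mt over the wt line for each gene in TGFB1, TGFB2, BMP2 and VEH (points, with 95% intervals as bars; filled points have an adjusted p under 0.05; scales differ between panels). Nfatc1 lies right of 0 and Tcf21, Gata4 and Gata6 lie left of it in all 4 treatments, whereas Wt1 sits near 0 in all but BMP2.

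The order of the 8 groups differed from gene to gene. For Wt1 the 4 TGFβ groups, with means from 69.3 to 77.3 CPM, each overlapped the neighbour in the order and lay below the other 4, whose means ran from 126.8 to 186 CPM. For Gata6 the order also followed the line: mt TGFβ groups at 90.1 and 96.0 CPM, wt TGFβ groups at 170.9 and 171.8 CPM, mt VEH and BMP2 at 230.2 and 244 CPM, then wt VEH at 334.1 ± 22.9 CPM and wt BMP2 at 444.6 ± 92.4 CPM (SD, n = 2 each). Neighbours within each of the first 3 pairs overlapped and the pairs themselves did not. For Tcf21 the wt TGFβ groups (169.7 and 202.8 CPM) overlapped mt VEH and mt BMP2 (204.1 and 234.9 CPM). For Nfatc1 the order ran the other way, with wt VEH lowest at 0.717 ± 0.131 CPM, wt BMP2 next at 1.63 ± 0.886 CPM, mt VEH, mt BMP2 and both wt TGFβ groups overlapping between 7.49 and 11.2 CPM, and the mt TGFβ groups highest at 35.3 and 37.1 CPM.

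The remaining genes mixed line and treatment in other ways. For Gata4 the mt TGFβ groups were lowest, at 60.2 and 64.2 CPM. Above them mt VEH (77.3 CPM) overlapped wt TGFB2 (83.5 CPM), which overlapped wt TGFB1 (90.9 CPM), mt BMP2 (145.1 CPM) overlapped wt VEH (153.6 CPM), and wt BMP2 stood highest at 226.3 ± 45.3 CPM. For Bnc1 the mt TGFβ groups were at 72.9 and 77.9 CPM, wt TGFB2 at 110.9 CPM, wt TGFB1 at 132.3 CPM overlapping mt BMP2 at 146.5 CPM, mt VEH at 190 CPM, and wt VEH at 240.6 CPM overlapping wt BMP2 at 275.3 CPM. For Gata5 the 4 TGFβ groups, at 0.0739 to 0.226 CPM, rest on too few reads to be ranked, and above them stood mt VEH at 6.76 ± 3.83 CPM, wt VEH at 11.2 ± 1.47 CPM and the overlapping BMP2 groups at 16.3 ± 1.34 CPM in mt and 17.0 ± 1.54 CPM in wt cells. For Tbx18 the wt TGFβ groups were lowest (37.2 and 39.3 CPM), the mt TGFβ groups next (49.1 and 50.3 CPM), and the other 4 each overlapped the neighbour in the order, with means from 57.5 to 74.4 CPM. The 2 mt BMP2 libraries of Tbx18 lay far apart, at 40.7 and 78.0 CPM, and the lower one was below every mt TGFβ library. Tbx18 and Nfatc1 were the genes whose wt TGFβ libraries all lay below their mt TGFβ libraries.

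Over the 16 libraries, log2 CPM of the members ran together, which describes a common dependence on treatment and line and rests on 2 libraries a group. Pearson's r was 0.95 for Gata6 with Bnc1, 0.93 for Wt1 with Gata5 and 0.93 for Tcf21 with Gata6. Nfatc1 was negatively related to all of the other 7, from -0.43 with Tbx18 to -0.90 with Tcf21. Tbx18 had the weakest relations, from 0.17 with Gata4 to 0.65 with Wt1. Likeness was read as r among the 9377 genes that averaged 5 CPM or more. The pattern most like that of Wt1 was that of Dock11 (r = 0.97), a guanine nucleotide exchange factor, followed by Adamtsl3 (0.97) and Twist1 (0.97), a helix-loop-helix factor of mesenchyme. For Tcf21 the 3 nearest were Rgs3, Pdgfra and Sema3d (0.99, 0.98 and 0.98), of which Pdgfra encodes a receptor of fibroblast progenitors and Sema3d a secreted guidance factor of the proepicardium. For Gata4 the nearest was Tbx20, a cardiac T-box gene (0.95), for Gata5 they were Fzd7, Dlk1 and Col6a2 (each at 0.99), and for Gata6 and Bnc1 the first were Zmym3 (0.98) and Nod1 (0.99). For Nfatc1 they were Mab21l2, Gatsl3 and Dsp (each at 0.99), where Dsp encodes the desmosome protein desmoplakin. For Tbx18 the nearest were Ltv1, a ribosome assembly factor (0.93), and Slc1a5, an amino acid transporter (0.91). Without the 4 mt replicate 1 libraries, Ltv1, Pdgfra, Dlk1 and Nod1 were first for Tbx18, Tcf21, Gata5 and Bnc1. For the other members the first gene moved down. Dock11 was then at rank 14 for Wt1 (r = 0.97) and Zmym3 at rank 13 for Gata6 (0.98). Tbx20 was at rank 6 for Gata4 (0.95) and Mab21l2 at rank 2 for Nfatc1 (0.99).

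Relatives and partners of the members were read from a list of 22 genes, of which 19 could be tested. In mt cells 4 rose and 1 fell with each TGFβ ligand. In wt cells 3 rose and 1 fell with TGFB1, and 4 rose and 1 fell with TGFB2. The median over the 19 lay between 0.27 and 0.37 in the 4 comparisons. Of all genes tested, 7.97% to 11.1% rose and 8.21% to 9.25% fell in these comparisons, a background that also stands beside the counts of the other lists. Other NFAT genes rose with Nfatc1. Nfatc2 was at 16.1 to 20.8 CPM with TGFβ and at 5.63 and 1.45 CPM with VEH in mt cells, and at 4.89 to 6.41 CPM with TGFβ and at 0.180 and 0.278 CPM with VEH in wt cells. The levels of both NFAT genes were thus higher in mt cells within each treatment and rose with TGFβ in each line. Nfatc2 rose by 2.35 ± 0.49 with TGFB1 and 2.41 ± 0.49 with TGFB2 in mt cells, and by 4.57 ± 0.60 with TGFB1 and 4.46 ± 0.60 with TGFB2 in wt cells (adjusted p from 0.000413 to 0.00677). Nfatc4 rose by 1.28 ± 0.24 and 1.37 ± 0.24 in mt cells and by 1.51 ± 0.24 and 1.53 ± 0.24 in wt cells, while Nfatc3 was called in none of the 4 comparisons.

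Gata2, a GATA gene of blood and endothelium, fell along with Gata5. It fell by 1.46 ± 0.43 with TGFB1 and by 2.13 ± 0.45 with TGFB2 in mt cells, and by 2.51 ± 0.40 with TGFB1 and by 2.71 ± 0.41 with TGFB2 in wt cells (adjusted p from 0.00077 to 0.036). Its level was 23.2 and 18.6 CPM with BMP2 and 3.31 and 5.11 CPM with VEH in mt cells, and 32.4 and 22.9 CPM with BMP2 and 21.9 and 17.9 CPM with VEH in wt cells. In vehicle, mt cells had more Nfatc2 (3.86 ± 0.61) and Nfatc4 (1.13 ± 0.24) and less Gata2 (-2.23 ± 0.40) than wt cells, the 3 genes of this list that were called between the lines. No gene of the list was called with BMP2 in either line by edgeR; Gata2 in mt cells came nearest, at 2.29 ± 0.40 (adjusted p = 0.0904, and 0.00731 with the replicate block).

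**Figure D4:**
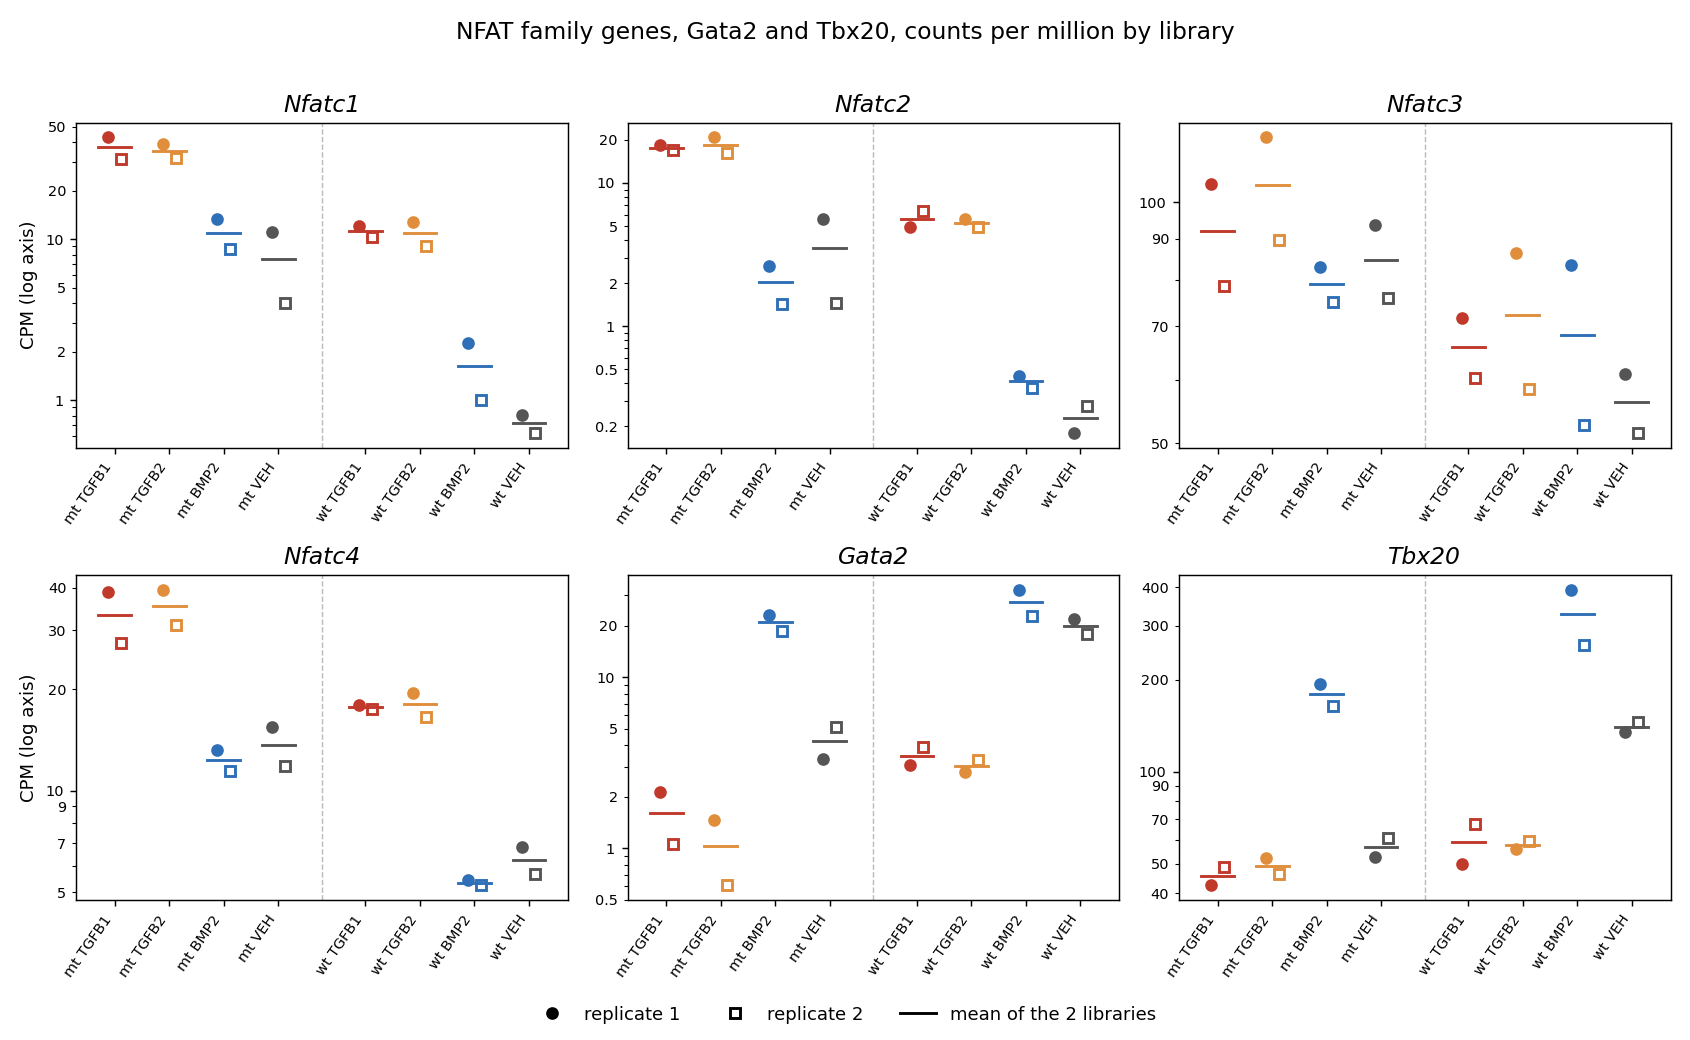
CPM (log axis, scales differ between panels) of 4 NFAT genes, Gata2 and Tbx20 in the 2 libraries of each line and treatment, with filled circles for replicate 1, open squares for replicate 2 and bars for the mean. Nfatc1, Nfatc2 and Nfatc4 are higher with either TGFβ ligand than with VEH in both lines, and Nfatc3 groups overlap between most treatments. Within each line Gata2 and Tbx20 are lowest with TGFβ and highest with BMP2. For Tbx20 in mt cells the TGFβ libraries (42.5 to 52.3 CPM) lie only just below those with VEH (52.6 and 60.6 CPM), without a call.

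A second list held 28 other genes of epicardium and mesothelium, of which 25 could be tested. In mt cells 2 rose and 15 fell with TGFB1, and 2 rose and 16 fell with TGFB2. In wt cells 2 rose and 12 fell with TGFB1, and 3 rose and 13 fell with TGFB2. The list's median log2 fold change was -1.29 and -1.47 in mt cells and -1.25 and -1.19 in wt cells. Dlk1 encodes a Delta-like relative of the Notch ligands. In mt cells Dlk1 was at 30.7 and 28.9 CPM with TGFB1 and at 537.4 and 1234 CPM with VEH. In wt cells Dlk1 was at 42.7 and 54.6 CPM with TGFB1 and at 1779 and 1765 CPM with VEH. The mesothelial surface gene Upk3b fell by 3.05 ± 0.26 with TGFB1 in mt cells and by 2.24 ± 0.25 with TGFB1 in wt cells. Mab21l2 was an exception that rose, by 2.74 ± 0.50 in mt cells and by 4.02 ± 0.58 in wt cells with TGFB1. With BMP2 no gene of this list was called in wt cells, and 1 was called in mt cells. That gene was Tbx20, a cardiac T-box gene, with a rise of 1.66 ± 0.24 (adjusted p = 0.0399). It was at 194 and 163.6 CPM with BMP2 and at 52.6 and 60.6 CPM with VEH. The call rests in part on the mt replicate 1 libraries, which held heart muscle transcripts. In mt replicate 2 alone, with 1 library a group, Tbx20 was at 163.6 CPM with BMP2 and at 60.6 CPM with VEH. In wt cells Tbx20 was at 393.1 and 260.2 CPM with BMP2 and at 134.9 and 144.9 CPM with VEH.

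Reported targets of WT1, which share Podxl, Aldh1a2 and other genes with the epicardial list, are set beside Wt1 itself. Of 14 such genes 10 could be tested; 2 rose and 2 fell with each ligand in mt cells, and in wt cells 1 rose and 2 fell with TGFB1 and 2 rose and 2 fell with TGFB2. Such counts of 1 or 2 in 10 are close to the shares of all genes called, 7.97% to 11.1% higher and 8.21% to 9.25% lower. Podxl, which encodes the surface sialomucin podocalyxin, fell by 4.53 ± 0.39 with TGFB1 in mt cells and by 3.92 ± 0.37 with TGFB1 in wt cells. Gas1, a growth arrest gene, fell by 2.64 ± 0.33 in mt cells and by 1.58 ± 0.32 in wt cells with the same ligand. Among those that rose were Aldh1a2, the enzyme of retinoic acid synthesis, in mt cells (1.44 ± 0.36 with TGFB1, adjusted p = 0.0181) and Spry1, an inhibitor of receptor kinase signalling, in wt cells (1.12 ± 0.23 with TGFB1, adjusted p = 0.00483). In the calcineurin and NFAT pathway, all 14 listed genes could be tested. With TGFB1 2 fell and none rose in mt cells, and 2 fell and 1 rose in wt cells; with TGFB2 4 fell and none rose in mt cells, and 2 fell and 1 rose in wt cells. Apart from the 4 with TGFB2 in mt cells, against 9.25% of all genes, these counts too are near the shares of all genes called. Rcan2, an inhibitor of calcineurin, had log2 fold changes with TGFB2 of -1.81 ± 0.35 in mt cells and -1.38 ± 0.34 in wt cells, and Ppp3cc, a catalytic subunit of calcineurin, of -1.45 ± 0.32 in mt cells and -1.14 ± 0.31 in wt cells. The gene that rose in wt cells was Ctsk, an osteoclast protease gene known as a target of NFATC1 (1.32 ± 0.41, adjusted p = 0.0432, with TGFB1 and 1.59 ± 0.41, adjusted p = 0.0173, with TGFB2). Its wt level was low, at 1.08 to 1.58 CPM with TGFβ and at 0.45 and 0.49 CPM with VEH. In mt cells Ctsk was not called (0.76 ± 0.42, adjusted p = 0.257, with TGFB1 and 0.34 ± 0.43, adjusted p = 0.667, with TGFB2). A link between Ctsk and Nfatc1 was not tested.

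Promoters of the members were read from RefSeq (build GRCm38.p6, 250 bases before to 50 after the start). There 4 of the 8 genes, Gata5, Bnc1, Tbx18 and Tcf21, had an entry, so that Wt1, Gata4, Gata6 and Nfatc1 could not be read. Capitals mark, on either strand, the short element CAGAC that SMAD3 and SMAD4 bind, and the elements AGATAA or TGATAA of GATA factors. No capital run overlaps another match. Gata5 is shown for its near loss with TGFβ, Tcf21 for its lower level in mt cells, and Tbx18 as the gene with no call unless the replicate block was used.
Gata5, chr2:180334630-180334929, minus strand: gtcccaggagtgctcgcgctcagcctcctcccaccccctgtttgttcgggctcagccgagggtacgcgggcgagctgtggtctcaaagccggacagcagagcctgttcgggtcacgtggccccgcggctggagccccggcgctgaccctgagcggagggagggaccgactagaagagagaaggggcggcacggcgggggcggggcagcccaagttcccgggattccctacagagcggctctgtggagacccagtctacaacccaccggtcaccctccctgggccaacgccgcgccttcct
Tcf21, chr10:22820094-22820393, minus strand: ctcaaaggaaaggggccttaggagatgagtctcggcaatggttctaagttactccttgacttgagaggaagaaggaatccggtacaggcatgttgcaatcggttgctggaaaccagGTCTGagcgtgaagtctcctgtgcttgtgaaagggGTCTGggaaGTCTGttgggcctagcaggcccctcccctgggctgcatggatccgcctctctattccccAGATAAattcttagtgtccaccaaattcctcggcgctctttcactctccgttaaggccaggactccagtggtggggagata
Tbx18, chr9:87731211-87731510, minus strand: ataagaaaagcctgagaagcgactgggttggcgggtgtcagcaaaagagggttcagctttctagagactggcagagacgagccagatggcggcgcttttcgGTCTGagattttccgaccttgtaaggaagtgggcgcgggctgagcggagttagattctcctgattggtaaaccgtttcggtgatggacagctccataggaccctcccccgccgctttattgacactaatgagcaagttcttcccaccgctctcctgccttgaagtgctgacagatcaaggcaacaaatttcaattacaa
No match to either element is in the Gata5 window, whereas the Tcf21 window has 3 of the SMAD3/SMAD4 type, at -134, -99 and -90 from the start, and 1 of the GATA type at -31, and the Tbx18 window has 1 of the SMAD3/SMAD4 type at -149. Bnc1, at chr7:81992250-81992549 on the minus strand, has 1 of the SMAD3/SMAD4 type at -9. Of 32851 promoters of this length, 49.6% hold the SMAD3/SMAD4 type and 18.6% the GATA type, on either strand. GGCGCC, an element of SMAD1 and SMAD5 that reads the same on both strands, was found once in Bnc1 (-61) and in 11.9% of all promoters. GGGCGG, the GC box, was found at 2 places in Gata5 and 6 in Bnc1 and in 35.7% of all promoters, and CACGTG, an E-box, was found once in Gata5 and in 7.15% of all promoters. GC content was 69.7% for Gata5, 83.3% for Bnc1, 51.7% for Tbx18 and 53.3% for Tcf21, with a median of 52.7% over all promoters.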

How the data were processed

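Polyadenylated RNA of 16 libraries was sequenced, and per the labels' protocols the RNA was extracted with phenol and chloroform and not fragmented. The authors deposited counts, that is raw reads per gene entry, and rpm, in which every library adds up to 1000000. The deposited rpm matched the counts over their column total to within 2.9e-11. Reads were aligned with TopHat or TopHat2 to mm9 per the submitters' processing notes. Not given in the sources used here are the counting program, its gene models, its strandedness and how reads with several matches were treated. Counts were used, and 2 entries without a gene name were left out.

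Counts were fitted with edgeR 4.0.16 in R 4.3.3 (filterByExpr, TMM scaling, robust quasi-likelihood F test, 8 group means, 8 residual degrees of freedom, biological coefficient of variation 0.274). P-values were Benjamini-Hochberg adjusted over 16835 genes, with a threshold of 0.05. The SE was derived from the test by dividing the absolute estimate by the root of F, and 95% intervals rest on it. Gata5 ratios have exact binomial intervals. Interval widths and 0 counts cover counting error only where so stated. The test was checked on simulated counts drawn independently for each library, with an outcome not reported here. Differences were put only into genes well above the detection limit and only into the wt TGFB1 group. That check does not cover Gata5 near its detection limit, ligand comparisons within mt cells or the fit with the replicate block. Nor does it cover variation shared by libraries with the same replicate number.

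Libraries with the same replicate number varied together: the correlation of their deviations from the group means was over 0.1 for 28 of 28 pairs of groups (0.163 to 0.756, median 0.506), and the labels give the numbers. A fit with the replicate number as a block is therefore quoted where it changes a call. Alternatives were RLE scaling, no filter on low counts, the block, DESeq2 1.42.0, the compared groups only, each library left out, and leaving out the 4 mt replicate 1 libraries.

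The members and the gene lists were chosen with earlier results of these data known. The text names the 8 members, Tgfbr3, marker genes, some genes of each list, and for each member up to 3 of the genes of highest correlation. The genes named from a list are not always those with the smallest p, and called genes with a smaller p are left out. The comparisons that share vehicle libraries are not independent. Tbx1 and Tbx4 are counted but not given values, for their few reads.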

Additional observations from a re-analysis of the deposited data

How the results depend on the processing

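Of 1444 values of the 8 genes under other settings, 1354 kept their side of the threshold, 58 lost a call and 32 gained one. No call was reversed in direction, but 64 of the 1354, all without a call, changed sign. RLE scaling changed 0 of 136 calls. For TGFB1 against VEH in mt cells, 1 gene in place of 6 was called with the compared groups only. For mt against wt in VEH, 0 in place of 2 were called with the compared groups only and 0 without the 4 mt replicate 1 libraries. For mt against wt with TGFB1, where 0 were called, the count was 1 with no filter on low counts, 4 with the replicate block and 3 with DESeq2. For mt against wt with TGFB2, where 1 was called, it was 2 with no filter, 3 with the replicate block, 3 with DESeq2, 3 with the compared groups only and 0 without the 4 mt replicate 1 libraries. For mt against wt with BMP2, where 1 was called, it was 4 with the replicate block, 3 with DESeq2 and 0 with the compared groups only. With 1 library left out, member counts ran from 4 to 6 (TGFB1) and 5 to 6 (TGFB2) in mt cells, 3 to 4 (TGFB1) and 4 to 5 (TGFB2) in wt cells, 5 to 7 in mt cells and 6 to 7 in wt cells for TGFβ against BMP2, and between the lines 0 to 2 in VEH, 0 to 1 with TGFB2, 0 to 1 with BMP2 and 0 with TGFB1. A lone library left in a group is assumed to vary like the others. The replicate block gained 16 calls, all given beside their results, and changed no other call. Beyond the fewer libraries of some settings, the cause of these changes was not tested. Depth limits Gata5 most, which had 3 to 11 reads per group with TGFβ.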

Other observations

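An unnamed cDNA entry runs away from Gata6 on the opposite strand of chromosome 18 (mm9, bases 11049928 to 11052565) and shares 59 bases with it. It held 134 to 3423 reads per library, 10.8% to 37.4% of the Gata6 reads. Its log2 fold change was -1.78 ± 0.57 (edgeR, adjusted p = 0.0541) with TGFB1 and -1.99 ± 0.58 (adjusted p = 0.033) with TGFB2 in mt cells, and -1.83 ± 0.57 (adjusted p = 0.0422) with TGFB1 and -1.58 ± 0.56 (adjusted p = 0.0706) with TGFB2 in wt cells. With BMP2 it was 0.06 ± 0.55 in mt cells and -0.20 ± 0.55 in wt cells. This entry was looked at after the values of Gata6 had been seen.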
